A study of Homo sapiens with 4 samples.

Results

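The fibrillar collagens are the chains that build the banded fibrils of connective tissue, and 10 of their genes were followed here among 61806 genes in the deposited count table. The members were the rows whose gene name was COL1A1, COL1A2, COL2A1, COL3A1, COL5A1, COL5A2, COL5A3, COL11A1, COL11A2 or COL27A1. Levels were measured by RNA sequencing of U251-MG, an established human glioblastoma line whose genotype is labelled WT. All cells carried a lentivirus made with the overexpression vector pCDH-CMV-MCS-EF1-puro: 2 libraries came from cells given the COL8A1 coding sequence (COL8A1) and 2 from cells given the negative control (NC). COL8A1 encodes a chain of the network-forming collagen VIII, so the comparison asks whether forced expression of a collagen outside the fibril family went with a change in the fibril-forming chains. The labels do not say whether the infected cells were clones or pools, nor whether replicates were grown apart. The p-values thus reflect the spread among 4 libraries, part or all of which may be technical. Where 4 values stand together without names, their order is NC replicate 1, NC replicate 2, COL8A1 replicate 1 and COL8A1 replicate 2.

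Each fibrillar procollagen is a trimer. Collagen I joins alpha 1 chains (COL1A1) with an alpha 2 chain (COL1A2), and collagens II (COL2A1) and III (COL3A1) are made of a single kind of chain. Collagen V joins COL5A1 with COL5A2 and sometimes COL5A3, and collagen XI joins COL11A1, COL11A2 and a product of COL2A1. Chains of V and XI can mix, as in molecules of alpha 1(XI) with alpha 2(V), and both types set the start and width of fibrils. COL27A1 forms thin fibrils in cartilage. Collagen I predominates in skin and bone, whereas normal brain tissue holds little fibrillar collagen outside vessels and meninges.

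The libraries held 27923796 to 33576228 counts. COL8A1 itself had 77, 82, 4290 and 2259 counts, in the direction of the labels. Its log2 fold change was 5.45 (SE 0.315), with an adjusted p of 0.0681 in edgeR, so it was not among the genes that passed, and of 6.25e-72 in DESeq2. Among 10 astrocyte and glioma markers, VIM had 75020 to 102615 counts and SOX2 16048 to 21956, whereas GFAP had 19 to 65, CHI3L1 0 to 3, and AQP4 0 in all. Of 4 leukocyte markers AIF1 was at 0 in all libraries, PTPRC and CSF1R had 0 to 8 counts, and CD68 had 107 to 187. Of 6 cartilage and bone markers SP7 and CNMD were at 0 in all libraries, MATN3 had 33 to 48 counts, and the other 3 had 0 to 10. Of 4 endothelial markers CDH5 had 1670 to 2487 counts, and the other 3 had 5 to 39. The 6 markers of pericytes and smooth muscle, cells that also make collagen, summed to 11.5, 12.2, 12.0 and 11.3 CPM (counts scaled to library size with TMM factors).

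The family's transcripts came almost wholly from 3 genes. COL5A2, COL11A1 and COL1A2 each averaged over 100 CPM, while the highest of the other 7 averaged 9.03 CPM. Divided by the union of each gene's exons, these 3 chains held 98.4% and 98.8% of the family's summed level in NC replicates 1 and 2, and 99.1% in both COL8A1 libraries. Each of the 3 usually belongs to a different trimer, and the usual partner chains of each were scarce.

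**Figure D1:**
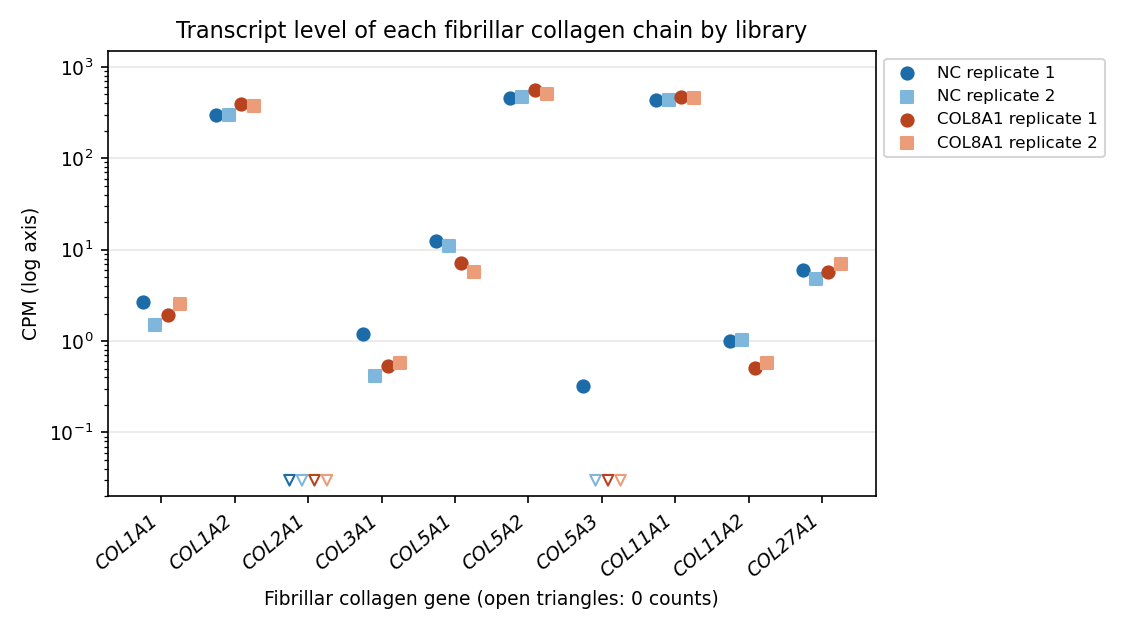
CPM on a log axis for each of the 10 genes in each of the 4 libraries; circles and squares are replicates 1 and 2, blue is NC, orange is COL8A1, and open triangles mark 0 counts. COL1A2, COL5A2 and COL11A1 lie between 295 and 552 CPM in every library, and the other 7 genes at or below 12.3 CPM.

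Collagen I was represented almost wholly by its alpha 2 chain. COL1A2 (ENSG00000164692; chromosome 7, 94394561 to 94431232, plus strand, GENCODE release 29) had 9198, 9955, 12459 and 10364 counts. COL1A1 (ENSG00000108821; chromosome 17, 50183289 to 50201632, minus strand) had 83, 50, 62 and 70. The COL1A2 count was thus 110.8 and 199 times that of COL1A1 in NC, and 201 and 148 times in COL8A1. Per exon length the ratio was 131-fold in NC and 152-fold in COL8A1 (geometric means, n = 2 each). The ranges of the groups overlapped, and the log2 ratio of COL1A1 to COL1A2 was −7.03 ± 0.60 in NC and −7.25 ± 0.31 in COL8A1 (SD, n = 2; exact permutation p = 0.667). No 50-base stretch of the longest coding transcript of either gene occurred in a transcript of another gene, and no exon of another gene in GENCODE release 29 overlapped them. Whether the annotation used for counting held another gene model over the COL1A1 exons, which could set reads aside as ambiguous, was not tested.

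COL1A2 was the chain with the smallest p-value in the family. Its level was 300.0, 295, 392 and 373 CPM. Both COL8A1 libraries lay above both NC libraries, with a ratio of means of 1.28. The log2 fold change was 0.36 (SE 0.059, 95% interval 0.21 to 0.52), and the edgeR p of 0.00213 became 0.457 after adjustment, so the difference missed the threshold. DESeq2 on the same genes gave an adjusted p of 0.0155, and one of 0.0833, which missed the threshold, when genes with low counts were kept. Over the alternatives the adjusted p ran from 0.0155 to 0.853, and the log2 fold change from 0.33 to 0.39. Markers of fibroblasts, which make collagen I, were measured beside it. Here 8 of 8 had a positive log2 fold change, where the median over all tested genes was 0.001. The summed levels of the 8 were 2113, 2202, 2449 and 2446 CPM. S100A4, MFAP5, PDGFRA and THY1 each had 5633 to 28744 counts, and DCN, LUM, FAP and PDPN 8 to 116. Of the 10 astrocyte and glioma markers, 8 were tested and 8 had a positive log2 fold change, with summed levels of 4124, 4697, 5019 and 4435 CPM. Of these sums VIM gave 2597, 3045, 3145 and 2701 CPM. DESeq2 called 1 of this list (against 1.06% of genes), SLC1A3, at 27.3, 27.2, 52.8 and 59.2 CPM. Its log2 fold change was 1.04 (SE 0.105, edgeR adjusted p = 0.165, DESeq2 adjusted p = 2.5e-10). The part of either list in the COL1A2 value was not tested. COL1A1 was at 2.71, 1.48, 1.95 and 2.52 CPM. Its groups overlapped, and its log2 fold change of 0.09 had an interval from −0.96 to 1.15, which includes the value seen for COL1A2.

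Collagen III was near the limit of detection. COL3A1 (ENSG00000168542; chromosome 2, 188974320 to 189012746, plus strand), whose product mixes with collagen I in the fibrils of soft tissue, had 37, 14, 17 and 16 counts. NC replicate 1 was above the other 3 libraries, which lay close together, and the groups overlapped. The log2 fold change was −0.54 (SE 0.657, edgeR adjusted p = 0.906). Without NC replicate 1 it was 0.41, so its sign rests on that library. The log2 ratio of COL3A1 to COL1A1 per exon length was −0.64, −1.31, −1.34 and −1.60. These groups did not overlap (exact permutation p = 0.333, adjusted 0.5), but both chains had few counts. COL3A1 and COL5A2 are neighbours on chromosome 2, with their 3′ ends facing each other across 19.15 kb. Per exon length COL5A2 was at 61.7 ± 1.61 CPM per kb in NC against 0.119 ± 0.082 for COL3A1 (SD, n = 2). By the mean over all 4 libraries, the 2 genes stood at the 96.5th and 2.78th percentiles of 16631 tested genes with a length.

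Collagen V also had 1 abundant chain, and its 2 tested chains had log2 fold changes of opposite sign. COL5A2 (ENSG00000204262; chromosome 2, 189031896 to 189225312, minus strand) was the most abundant member, at 452, 469, 552 and 511 CPM. Both COL8A1 libraries lay above both NC libraries. Its log2 fold change was 0.21 (SE 0.065, interval 0.04 to 0.38), and the edgeR p was 0.0264 before and 0.747 after adjustment. COL5A1 (ENSG00000130635; chromosome 9, 134641774 to 134844843, plus strand), the chain present in nearly all collagen V molecules, was instead lower in COL8A1. It was at 12.3, 10.9, 7.17 and 5.72 CPM, from 377, 368, 228 and 159 counts. Both COL8A1 libraries lay below both NC libraries, and the ratio of means was 0.556. The log2 fold change was −0.85 (SE 0.190, interval −1.35 to −0.35), and the edgeR p was 0.00792 before and 0.592 after adjustment. In DESeq2 the adjusted p was 0.0685, and over the alternatives the log2 fold change ran from −1.02 to −0.70.

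The count of COL5A2 was 36.7, 42.9, 77.0 and 89.2 times that of COL5A1. The ratio of COL5A1 to COL5A2 was therefore lower in COL8A1 cells by 1.06 on the log2 scale, from −5.90 ± 0.16 to −6.96 ± 0.15 per exon length (SD, n = 2). The groups did not overlap. The exact permutation p was 0.333, the smallest that 2 against 2 libraries allow, and 0.5 adjusted over 6 pairs of chains, so this test cannot reach the threshold with 2 libraries a group. The difference kept its direction without any 1 library, from −1.17 to −0.95. COL5A3 (ENSG00000080573; chromosome 19, 9959561 to 10010471, minus strand), an optional chain, had 10 counts in NC replicate 1 and 0 in the other 3 libraries. A count of 0 allows up to 3 counts, which is 0.089 to 0.108 CPM in those libraries, and COL5A3 was too low to be tested or to give a ratio.

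Collagen XI was represented by its alpha 1 chain. COL11A1 (ENSG00000060718; chromosome 1, 102876467 to 103108872, minus strand) was at 435, 428, 471 and 454 CPM. The COL8A1 libraries were higher without overlap, but the log2 fold change was only 0.10 (SE 0.054, interval −0.04 to 0.24, edgeR adjusted p = 0.835). COL11A2 (ENSG00000204248; chromosome 6, 33162681 to 33192499, minus strand), its partner chain, had 31 and 35 counts in NC and 16 in each COL8A1 library. The groups did not overlap, and the log2 fold change was −0.92 (SE 0.410, interval −2.00 to 0.16, edgeR adjusted p = 0.828). COL11A1 had 430 and 413 times the counts of COL11A2 in NC, and 936 and 789 times in COL8A1. The log2 ratio of COL11A2 to COL11A1 was −8.29 ± 0.04 in NC and −9.31 ± 0.17 in COL8A1 (SD, n = 2; exact permutation p = 0.333, adjusted 0.5). With 16 to 35 counts of COL11A2 per library, these SDs can understate the error of the ratio. The remaining chain of collagen XI comes from COL2A1 (ENSG00000139219; chromosome 12, 47972965 to 48004554, minus strand), which had 0 counts in all 4 libraries. SOX9 and SOX5, transcription factors known to act on COL2A1 and COL11A2 in cartilage, had 4979 to 6065 and 1166 to 1689 counts, and their partner SOX6 had 0 to 2. SOX5 and SOX6 were picked for mention after their values were seen.

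The 3 abundant chains can be set against each other across the usual trimers. COL11A1 and COL5A2, whose products can share a molecule, had similar counts: COL11A1 was at 0.963 and 0.914 of COL5A2 in NC, and 0.853 and 0.889 in COL8A1. Per exon length the level of COL5A2 was 1.3 times that of COL11A1 in NC and 1.4 times in COL8A1. With the length of the longest coding transcript these were 1.10 and 1.19 times. This pair was added after the values were seen. Against COL5A1, the homologous alpha 1 chain of collagen V, COL11A1 had 35.4 and 39.2 times the counts in NC and 65.7 and 79.4 times in COL8A1 (change of 0.95 on the log2 scale, exact permutation p = 0.333, adjusted 0.5). This ratio shares COL5A1 with the COL5A1 to COL5A2 ratio and is not a separate observation.

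**Figure D2:**
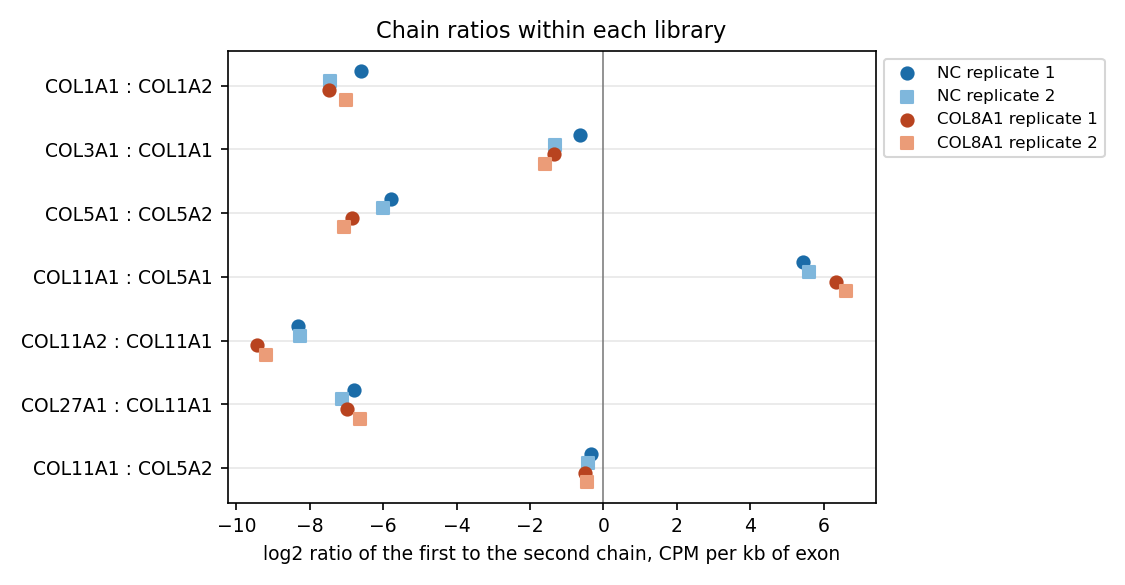
The log2 ratio of the first to the second named chain, on CPM per kb of exon, for 7 pairs in each of the 4 libraries. The COL5A1 to COL5A2 ratio lies near −5.90 in NC and −6.96 in COL8A1, and the COL1A1 to COL1A2 ratio is below −6.6 in all 4 libraries with overlapping groups.

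The order of the levels per exon length was COL5A2 (61.7 CPM per kb in NC), COL11A1 (47.5), COL1A2 (26.7), COL5A1 (1.04), COL27A1 (0.385), COL1A1 (0.213), COL11A2 (0.152) and COL3A1 (0.119). Over the 4 libraries COL1A1, COL11A2 and COL3A1 overlapped among themselves, and COL1A1 stayed below COL27A1. In NC the order of the top 3 was the same by either length used. In COL8A1 the order of COL11A1 and COL1A2 depended on the length. Per length of the longest coding transcript, COL5A2, COL11A1 and COL1A2 were at 65.0, 58.9 and 55.0 CPM per kb in NC. In COL8A1 these were 75.1, 63.2 and 70.7. Ranges over the 4 libraries overlapped by this length, but within each library COL5A2 was the highest by either length. By either length the 3 lay above the 91st percentile of tested genes. Base composition moved with the levels in part: the transcripts of COL11A1, COL5A2 and COL1A2 had 47.3%, 48.0% and 54.8% G and C. The 6 members over 60% were all scarce, yet COL3A1 was scarce at 52.1%. So was COL24A1, a fibrillar chain that is not a member, at 45.1%. The part of base composition was not tested.

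The promoters of COL11A1 and COL5A1 are shown because these homologous alpha 1 chains differed by 45.8-fold per exon length in NC. Sequences are from RefSeq (GRCh38.p14), whose table had entries for 5 of the 10 members, and cover 300 bases on the minus strand at chr1:103108473-103108772 and on the plus strand at chr9:134641553-134641852. RefSeq gave 1 entry for COL11A1 and 2 for COL5A1, of which only the first is shown and counted. The windows are placed around the RefSeq start sites at 103108522 and 134641803. The outermost 5′ end in GENCODE lies 350 bases upstream of the first, so the COL11A1 window is inside the GENCODE gene span, and 29 bases upstream of the second. The sequences run 5′ to 3′, and capitals mark each match on either strand to CCAAT or to the GC box GGGCGG.
COL11A1: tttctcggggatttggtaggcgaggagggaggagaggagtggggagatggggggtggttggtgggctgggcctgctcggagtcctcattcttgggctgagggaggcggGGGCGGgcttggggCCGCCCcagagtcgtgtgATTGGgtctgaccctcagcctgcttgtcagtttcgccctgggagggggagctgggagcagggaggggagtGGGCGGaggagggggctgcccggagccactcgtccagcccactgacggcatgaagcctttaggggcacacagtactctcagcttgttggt
COL5A1: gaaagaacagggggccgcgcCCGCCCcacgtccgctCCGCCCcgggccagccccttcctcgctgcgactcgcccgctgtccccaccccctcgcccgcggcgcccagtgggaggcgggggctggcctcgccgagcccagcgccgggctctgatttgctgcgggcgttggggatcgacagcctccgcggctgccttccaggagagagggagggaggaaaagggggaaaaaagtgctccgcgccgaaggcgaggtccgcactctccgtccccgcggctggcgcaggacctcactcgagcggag
The COL11A1 window held 1 match to CCAAT and 3 to GGGCGG, and the COL5A1 window 0 and 2. TATAAA, the TATA box, had 0 matches in both. Of 35116 promoters of the same length, 34.6% held CCAAT, 45.0% GGGCGG and 11.5% TATAAA on either strand. These are letter matches only.

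COL27A1 (ENSG00000196739; chromosome 9, 114155560 to 114312511, plus strand) was at 6.03, 4.75, 5.66 and 6.99 CPM. Its groups overlapped, with a log2 fold change of 0.23 (interval −0.38 to 0.84, edgeR adjusted p = 0.889), and with 1 library left out this value ran from 0.064 (without NC replicate 2) to 0.41 (without NC replicate 1). COL24A1, the remaining fibrillar chain, which is not a member, had 12 to 22 counts per library and a log2 fold change of 0.33 (SE 0.546).

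Over the family, 8 of the 10 genes passed the filter on low counts and were tested. Of these, 0 passed the edgeR threshold of an adjusted p under 0.05, which 2 of 17030 genes did (0.0117%). At an unadjusted p under 0.05, COL1A2 and COL5A2 were higher and COL5A1 lower, 3 of 8, where 6.07% of all tested genes had such a p (3.44% higher, 2.63% lower). DESeq2 called 1 member, COL1A2, against 1.06% of genes, and 0 members against 0.732% when low-count genes were kept. The groups did not overlap for 3 members that were higher and 2 that were lower, against 18.9% and 18.6% of all tested genes. The median log2 fold change was 0.10 over the 8 members and 0.001 over all tested genes. These counts describe the family only. The summed level of all 10 genes averaged 1211 ± 0.764 CPM in NC against 1393 ± 54.3 in COL8A1 (SD, n = 2; ratio 1.15, exact two-sided permutation p = 0.333, the smallest possible).

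**Figure D3:**
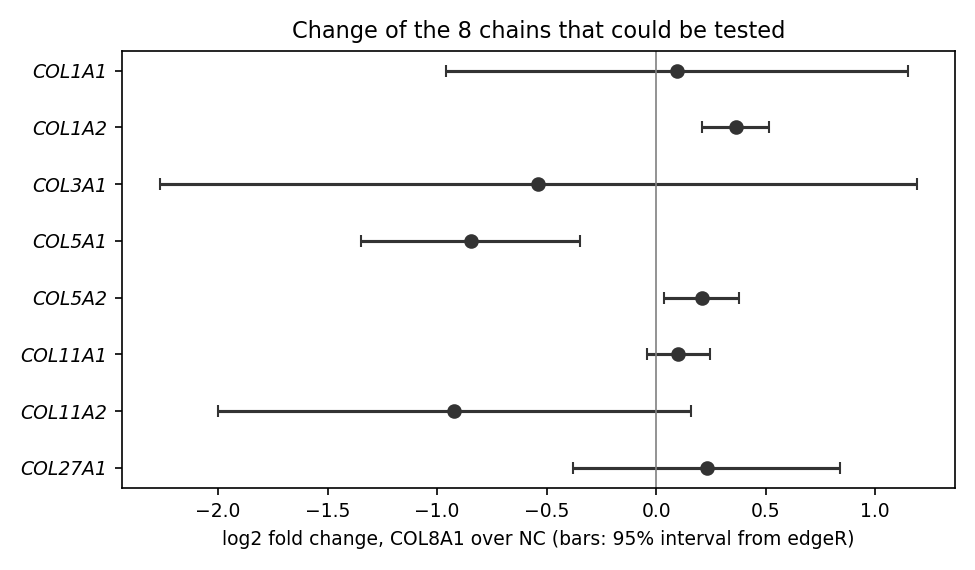
log2 fold change of COL8A1 over NC for the 8 tested chains, with 95% intervals from the edgeR fit. The intervals of COL1A2 and COL5A2 lie above 0 and that of COL5A1 below 0 before any adjustment, and those of COL1A1, COL3A1 and COL11A2 span more than 2 log2 units.

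Genes that make, bind, cut or regulate fibrillar collagens, with COL24A1, were measured in 9 lists holding 107 genes, of which 86 were tested. In edgeR 0 passed the threshold, 8 were higher and 1 lower at an unadjusted p under 0.05 (against 3.44% and 2.63% of all tested genes), and the median log2 fold change was 0.03. DESeq2 called 3 (against 1.06% of genes), all higher: POSTN, MMP2 and SP3. The proteinase, lysyl enzyme and prolyl hydroxylase lists each held 0 of these 3. At an unadjusted edgeR p under 0.05 they held 0 genes that were higher and 1 that was lower, PCOLCE2. In the endoplasmic reticulum, where chains are hydroxylated, folded and exported, 20 of 22 prolyl hydroxylases, chaperones and export genes were tested, with 10 log2 fold changes on each side of 0 and 0 at an unadjusted p under 0.05. P4HB, a subunit of prolyl 4-hydroxylase, had a mean of 956 ± 104 CPM in NC against 879 ± 155 in COL8A1 (SD, n = 2). For CRTAP, of the prolyl 3-hydroxylase complex, the log2 fold change was 0.11 (SE 0.054), and for FKBP10, a collagen chaperone, 0.27 (SE 0.147).

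Procollagen proteinases trim the ends of the trimer so that fibrils can form, and 7 of 9 on this list were tested. Of these, 5 had a log2 fold change above 0 and 2, PCOLCE2 and TLL1, below 0, with a median of 0.08. PCOLCE2, which enhances removal of the C-terminal propeptide, had 44, 51, 23 and 19 counts, the COL8A1 libraries being lower without overlap (log2 fold change −1.06, SE 0.350, edgeR adjusted p = 0.78). The value for TLL1, a C-proteinase, was −0.30 (SE 0.115). FURIN, which cuts procollagen V, averaged 154 ± 7.65 CPM in NC against 155 ± 20.5 in COL8A1. ADAMTS2, the main N-proteinase of collagen I, had 0 counts in all 4 libraries. Its relative ADAMTS14 had 131 to 240 counts (log2 fold change 0.33, SE 0.287). Both are named after their values were seen. Lysyl oxidases, which cross-link fibrils, and lysyl hydroxylases were all tested, 4 of 8 on each side of 0. The log2 fold change was 0.24 for LOX (SE 0.134) and −0.19 for LOXL2 (SE 0.089). PLOD1, the highest of the list, averaged 330 ± 6.60 CPM in NC against 326 ± 24.3 in COL8A1.

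Among proteins that bind fibrils, 8 of 13 were tested. POSTN, periostin, averaged 76.7 ± 6.20 CPM in NC against 123 ± 3.67 in COL8A1 (SD, n = 2; log2 fold change 0.68, SE 0.089, edgeR adjusted p = 0.305, DESeq2 adjusted p = 2.4e-05). FN1, fibronectin, on which cells lay down collagen, showed a log2 fold change of 0.20 (SE 0.077), and THBS1 one of −0.02 (SE 0.135). The fibril-associated collagens, which decorate fibril surfaces, had 5 of 7 tested members above 0, with a median of 0.29 against 0.001 for all genes, and 4 at an unadjusted p under 0.05, all higher (against 3.44% of all tested genes). At 54, 34, 23 and 4 counts, COL16A1 was lower in COL8A1 without overlap; it was chosen once its values were known (log2 fold change −1.64, SE 0.808, edgeR adjusted p = 0.835). COL14A1 averaged 118 ± 0.216 CPM in NC against 145 ± 10.3 in COL8A1 (edgeR adjusted p = 0.67). COL9A3, a chain of the collagen IX found on fibrils of collagens II and XI, averaged 58.1 ± 2.21 against 75.3 ± 8.17 CPM (edgeR adjusted p = 0.724). The receptors had 2 of 7 above 0. For ITGB1, the beta chain of collagen-binding integrins, the value was −0.08 (SE 0.081), and for MRC2, an uptake receptor for collagen, 0.22 (SE 0.154).

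Of the enzymes that cut fibrillar collagen, 3 of 6 were tested. MMP2, a gelatinase that digests denatured collagen, had 7778, 8274, 14085 and 9469 counts. COL8A1 replicate 1 stood above replicate 2, and both above NC (log2 fold change 0.65, SE 0.137, edgeR adjusted p = 0.58, DESeq2 adjusted p = 0.0137). The value for MMP14, a membrane-bound collagenase, was 0.26 (SE 0.177), but 0.022 without COL8A1 replicate 1 and 0.45 without COL8A1 replicate 2. Among 28 regulators of fibrillar collagen transcripts 25 were tested, 16 with a log2 fold change above 0. SP3, which with SP1 binds GC boxes of collagen promoters, averaged 127 ± 11.5 CPM in NC against 185 ± 8.37 in COL8A1 (log2 fold change 0.54, SE 0.092, edgeR adjusted p = 0.457, DESeq2 adjusted p = 0.0035). The log2 fold change was 0.04 (SE 0.061) for SP1 and 0.24 (SE 0.067) for SOX9.

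**Figure D4:**
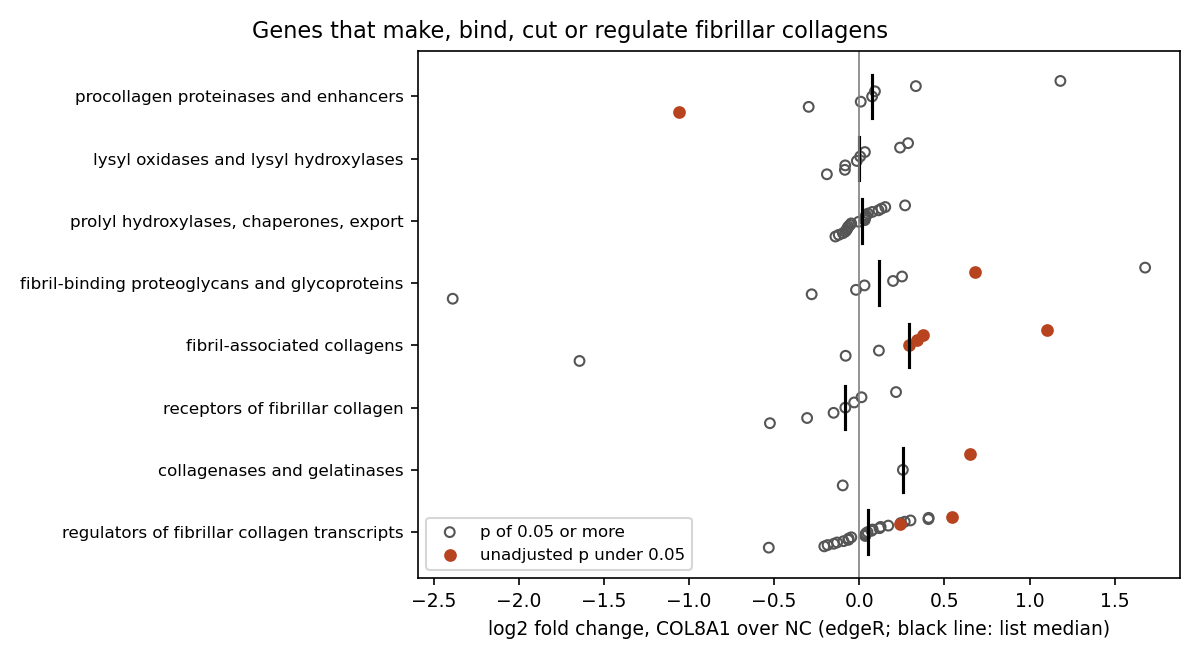
log2 fold change of COL8A1 over NC for the tested genes of 8 lists around the fibrillar collagens; filled points have an unadjusted edgeR p under 0.05 and black lines are list medians. The fibril-associated collagens have 4 filled points, and the lysyl oxidase, chaperone and receptor lists have 0.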

How the data were processed

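Total RNA of U251-MG cells was sequenced in 4 libraries, 2 per vector. The authors deposited raw read counts per gene without normalization. The submitters' processing notes name the build hg38, the aligner HISAT2 2.2.1, the trimmer Trim Galore 0.6.9 and the counter featureCounts, with a version of 0.3. For the counting, neither its strand setting nor its annotation release is given in the sources used here. The table held 61806 genes, and 1 line that was no gene was left out. Groups and replicate numbers came from the sample titles.

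Counts were tested in R 4.3.3 with edgeR 4.0.16 (filterByExpr, TMM, quasi-likelihood F-test, group as the only term) over 17030 genes, with Benjamini-Hochberg adjustment over all of them and a threshold of 0.05. The SE is the absolute log2 fold change over the root of F, and 95% intervals use 2 residual and 2.64 prior degrees of freedom. CPM used TMM-scaled library sizes. Lengths, positions and transcripts came from GENCODE release 29, whose gene models may differ from those counted. Log2 ratios of chains were compared by exact two-sided permutation over libraries. Alternatives were RLE factors, library size alone, COL8A1 left out, other low-count filters, a replicate block, DESeq2 1.42.0, limma-voom 3.58.1 and each library left out. DESeq2 without the low-count filter and the pair COL11A1 to COL5A2 were added after seeing the data.

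Members and gene lists were chosen with earlier results of these data known. Named besides the members were, per list, the 2 smallest p-values and the highest CPM. Marker genes of cell types were named after their values were seen. Replicate libraries differed beyond sampling noise (chi-square per degree of freedom 31.1 in NC and 33.8 in COL8A1). Intervals and floors cover counting error and, in edgeR, the spread between libraries. PCR copies were counted as reads.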

Additional observations from a re-analysis of the deposited data

How the results depend on the processing

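Of the 8 tested chains, COL1A2, COL5A2, COL11A1 and COL27A1 stayed above 0 and COL5A1 and COL11A2 below 0 in every alternative run. With a library left out, COL1A1 ran from −0.28 to 0.59 and COL3A1 from −1.12 to 0.41 (log2 fold change). Among other genes, COL24A1 ran from −0.072 to 0.87, FURIN from −0.14 to 0.14, PLOD1 from −0.092 to 0.056, P4HB from −0.31 to 0.045, THBS1 from −0.21 to 0.15 and ITGB1 from −0.18 to 0.011. The change in the log2 ratio of COL1A1 to COL1A2 ran from −0.64 to 0.21, and that of COL27A1 to COL11A1 from −0.045 to 0.31. The cause was not tested.

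With the length of the longest coding transcript, the log2 ratio over all libraries was −6.10 for COL5A1 to COL5A2, −9.04 for COL11A2 to COL11A1, −6.36 for COL27A1 to COL11A1 and −0.20 for COL11A1 to COL5A2. Without length scaling these were −5.84, −9.23, −6.27 and −0.15, with −1.75 for COL3A1 to COL1A1 and 5.70 for COL11A1 to COL5A1. The shifts follow from the lengths.

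Of all genes, 2 passed in edgeR, 17 without a low-count filter, 180 in DESeq2, 144 in DESeq2 without that filter, and 0 to 3 with a library left out. DESeq2 called 1 chain with the filter and 0 without it, and 3 pathway genes in either case. The labels do not say that replicate numbers pair libraries, and deviations of same-numbered libraries correlated at −0.03. With the replicate block 1 gene passed and 0 chains. COL1A1 had 50 to 83 counts, COL3A1 14 to 37 and COL11A2 16 to 35, and such few counts limit what can be said of these chains. For COL1A1 and COL3A1 the spread between libraries limits it too.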
